A study of Mus musculus with 14 samples.

Results

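Pancreatic stellate cells (PSCs) were profiled by RNA-Seq after culture with DMSO alone, the solvent control of the study, and are described here as they were without an added agonist. The samples were chosen by label, as the DMSO-treated libraries of the stellate cell table, and there were 3 of them among the 14 samples of the series. All came from mouse PSCs, and total RNA was sequenced. Each library was a separate preparation of cells, called preparation 1, 2 and 3 after the replicate number of its label. A second library of each preparation had been given Yoda1, a PIEZO1 agonist, at 25 μM. Levels are from the DMSO libraries alone. The Yoda1 libraries entered as the second library of each preparation wherever preparations were tested, so fitted differences and ranges there are over both treatments, and no effect of Yoda1 is given. The sample labels give no strain, age, sex or pooling of the donor mice, while the methods of the study give an age range and both sexes for its mice in general. For mouse PSCs, those methods describe 3 days on Matrigel-coated plates, in medium with fetal bovine serum.

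PSCs surround the acini of the pancreas, the enzyme-secreting part of the gland. In the quiescent state they store vitamin A in lipid droplets. On injury or in plastic culture they become myofibroblast-like, gain α-smooth muscle actin (Acta2), and secrete collagen, other matrix proteins, protease inhibitors and cytokines. PIEZO1 is a calcium-permeable channel opened by membrane stretch, and TRPV4 is a calcium-permeable channel of the TRP family.

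For each gene listed, the deposited value was its number of reads divided by one size factor per library, called a normalised read here. Preparation 1 held 27312894 reads on the listed genes, preparation 2 held 30247226, and preparation 3 held 34741255. One read was worth 1.247, 1.122 and 1.009 normalised reads in the 3 libraries, so that 3 reads, taken as the limit of a count of 0, equalled 3.74, 3.37 and 3.03. Of 16481 genes listed, 14362 had a value of at least 10 in all 3 libraries and were called detected. To compare genes with each other, values were also divided by gene length and scaled, as TPM values are, to one total over the 14491 protein-coding genes with a known length, and this is called the length-scaled level. The library of preparation 3 stood apart. Read counts of preparations 1 and 2 differed by 7.99 times what counting error alone gives (chi-square per degree of freedom), against 54.7 times for preparations 1 and 3 and 38.0 times for preparations 2 and 3. This mean gives great weight to genes with many reads. The median absolute log2 difference over genes was 0.1, 0.175 and 0.147 for these pairs. Their log2 values correlated at 0.9928, 0.9863 and 0.9899 (Pearson), so preparation 3 stood apart less by these measures. No pair agreed within counting error, so none was treated as 1 library deposited more than once.

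The 5 genes taken as markers of these cells were present in every library. Acta2 (ENSMUSG00000035783, GRCm38 chromosome 19, 34241090 to 34255336) had 133472 normalised reads in preparation 1, 120680 in preparation 2 and 132329 in preparation 3. Its length-scaled level was 8552 ± 433 (SD, n = 3), which ranked number 4 among protein-coding genes. Col1a1 (ENSMUSG00000001506, chromosome 11, 94936224 to 94953042), the α1 chain of type I collagen, had 404158, 409633 and 463416 normalised reads, more than any other protein-coding gene. Both genes were within a narrow range in the 3 DMSO libraries. Col1a1 was highest in preparation 3 with DMSO, an order that the Yoda1 libraries did not share (261784, 234059 and 213908).

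Timp1 (ENSMUSG00000001131, chromosome X, 20870166 to 20874735), a secreted inhibitor of metalloproteinases, had 32564, 36004 and 40874 normalised reads and a length-scaled level of 4859 ± 565 (SD, n = 3). Spp1 (ENSMUSG00000029304, chromosome 5, 104435118 to 104441050), which encodes the secreted phosphoprotein osteopontin, had 6681, 8591 and 9345 normalised reads and a level of 589 ± 100.3. The gene of the stretch-gated channel, Piezo1 (ENSMUSG00000014444, chromosome 8, 122481698 to 122551329), had 16698, 16580 and 14295 normalised reads and a level of 189 ± 16.1. Per length, Timp1 was thus above Spp1, and Spp1 above Piezo1, in every library, and the SDs of neighbours in this order did not overlap.

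Few genes held a large part of the reads. The 20 genes with the highest mean value took 13.3% ± 1.7 (SD, n = 3) of the normalised reads, and the top 1000 took 55.8% ± 0.87. Highest of all was a noncoding transcript listed as RP23-81C12.3 (ENSMUSG00000098178, Gm42418 in GRCm38, chromosome 17, 39846958 to 39848788). It took 2.37% of the reads in preparation 1, 2.92% in preparation 2 and 5.29% in preparation 3, with the largest coefficient of variation (46.0%) among these 20 genes. Among the genes that came after it were Col1a1, Fn1, Actb, Thbs1, Eef1a1, Col1a2, Flna, Myh9, Sparc, mt-Co1, Acta2, Tpm1, Col5a2, Lox, Serpinh1, Eef2, Col3a1 and Fbln2. The matrix genes of this set were Col1a1, Col1a2, Col3a1 and Col5a2 (fibrillar collagen chains), Fn1 (fibronectin), Thbs1 (thrombospondin 1), Sparc and Fbln2. Lox cross-links collagen and Serpinh1 is a collagen chaperone of the endoplasmic reticulum.

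Per length, the order began with Actb at 12168 ± 920, mt-Co1 at 9899 ± 121 and Eef1a1 at 8867 ± 122. Acta2 and Lgals1 (galectin 1) at 8235 ± 1205 followed, and their SDs overlapped. Lower in the order were mt-Cytb, Col1a1 at 7671 ± 594, Rplp1, mt-Nd1, Tagln at 5254 ± 94.0, Serpinh1 at 5159 ± 72.4, Timp1, Tmsb4x, Sparc, Thbs1, Eef2, Hsp90ab1, Rpl36 and Ctgf (all SD, n = 3). Secreted or matrix products (Lgals1, Col1a1, Timp1, Sparc, Thbs1 and Ctgf among them) thus stood beside cytoskeletal, ribosomal and mitochondrial genes among the 20 highest.

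**Figure D1:**
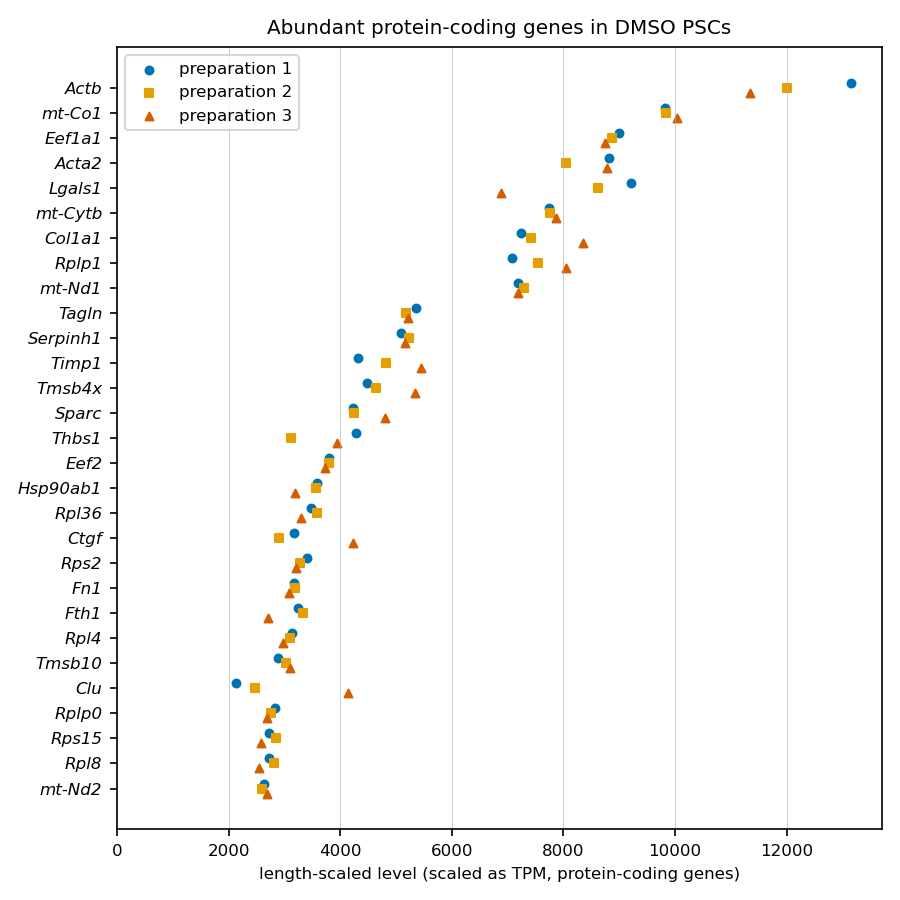
Length-scaled level (scaled as TPM over protein-coding genes, linear axis from 0) of 29 protein-coding genes among the 30 highest, with 1 point per preparation, set slightly apart in height. Acta2 ranks number 4, Clu is the gene in view with preparation 3 farthest above the others, and the preparations lie close together for the mitochondrial genes.

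The contractile apparatus held more reads than any other list of genes examined. All 32 members were detected, and together they took 4.94%, 4.61% and 4.51% of the reads in preparations 1, 2 and 3. After Actb and Acta2, the highest per length were Tagln, the actin-binding transgelin, Vim, an intermediate filament protein, at 2401 ± 195, and Tpm4, a tropomyosin, at 2380 ± 62.7. The smooth muscle genes Cnn1 (10973, 8889 and 10976 normalised reads), Actg2 (5064, 3849 and 5129) and Myh11 (3650, 2288 and 2420) were also present, and each was lowest in preparation 2. Without matching for level, variation within the list was about that of genes in general. The median coefficient of variation (SD over mean) over the 3 preparations was 6.17%, against 6.33% over the 11414 genes tested with a mean of at least 100 normalised reads. Variation fell with level: the median was 8.46% for genes with a mean of 100 to 1000 and 5.03% for 1000 to 10000.

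One sequence feature known from smooth muscle genes is the CArG box, the site bound by serum response factor, whose gene Srf was the highest in the list of fibroblast transcription factors (length-scaled level 225 ± 8.01). In the 250 bases before the RefSeq transcription start (GRCm38.p6), a strict CArG box was found for 6 of the 28 contractile genes with a promoter sequence, or 21.4%, against 1.62% of 27025 genes. The motif reads the same on both strands. The 6 were Acta1, Actg1, Cnn2, Myl6, Myl9 and Vcl, and no match was found in that window for Acta2, which says only that the strict letters are not in it. The windows of Acta1, a sarcomeric actin, and Vcl, vinculin of focal adhesions, which overlap no annotated exon, are shown with the box in capitals, as examples of what was matched. That of Acta1 spans chr8:123894776-123895025 on the minus strand and that of Vcl chr14:20929148-20929397 on the plus strand.
Acta1: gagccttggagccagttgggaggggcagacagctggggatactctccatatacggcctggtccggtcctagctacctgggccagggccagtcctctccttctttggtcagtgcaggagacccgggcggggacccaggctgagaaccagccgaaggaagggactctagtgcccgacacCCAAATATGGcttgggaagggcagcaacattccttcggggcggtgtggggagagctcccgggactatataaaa
Vcl: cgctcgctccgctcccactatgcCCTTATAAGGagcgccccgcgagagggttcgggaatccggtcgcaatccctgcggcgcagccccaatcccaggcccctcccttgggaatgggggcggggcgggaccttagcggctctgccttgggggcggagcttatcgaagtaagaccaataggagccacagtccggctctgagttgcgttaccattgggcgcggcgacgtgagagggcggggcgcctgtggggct
In the DMSO libraries Acta1 had 2346, 1947 and 2677 normalised reads and Vcl 26313, 24488 and 23138, so genes with a match differed widely in level.

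Matrix genes came next by reads, a measure that favours long genes. The 27 matrix glycoproteins listed took 2.95%, 2.82% and 3.13% of the reads, and the 9 fibrillar collagens 2.49%, 2.60% and 2.87%, with all 9 detected. Scaled by length, these lists held 1.87% and 1.32%, below the mitochondrial list (3.35%) and other secreted proteins (2.14%). Col1a2 had a length-scaled level of 1749 ± 251, Col5a2 of 1473 ± 46.7, Col3a1 of 1227 ± 61.3 and Col5a1 of 908 ± 207. At the other end, the cartilage collagen gene Col2a1 had 14, 10 and 29 normalised reads. Among other collagens, the basement membrane chains Col4a1 at 1199 ± 89.5 and Col4a2 at 787 ± 66.9 were highest, ahead of Col12a1 at 443 ± 55.2.

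Of the glycoproteins, Sparc was at 4428 ± 321, Thbs1 at 3781 ± 600.2, Fn1 at 3150 ± 53.5, Fbln2 at 1869 ± 49.0 and Igfbp7 at 1352 ± 278. Thbs1 was uneven, with 220858, 159152 and 202784 normalised reads, whereas Fn1 had 314933, 313659 and 305285. Enzymes that fold and cross-link collagen took 1.09%, 1.15% and 1.27% of the reads. Their leading members after Serpinh1 were Lox at 2632 ± 415, P4hb at 2248 ± 96.8, Fkbp10 at 637 ± 17.2 and Loxl2 at 592 ± 159. Lox and Loxl2, both lysyl oxidases, were highest in preparation 3 with DMSO, and Loxl2 had 21054, 24961 and 35112 normalised reads. The Yoda1 libraries did not share this order for Lox (82790, 82400 and 80120).

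Basement membrane genes were led by Hspg2 (perlecan) at 743 ± 18.5, Nid1 at 528 ± 30.1, Lamb1 at 245 ± 22.4, Lamc1 at 200.1 ± 4.54 and Nid2 at 179 ± 93.3. Proteoglycan genes were led by Bgn (biglycan) at 1341 ± 145, Sdc4 at 578 ± 155, the hyaluronan receptor Cd44 at 372 ± 6.26, the hyaluronan synthase Has2 at 231 ± 4.76 and Gpc4 at 196 ± 16.2. Decorin (Dcn), with 3511, 3674 and 2849 normalised reads, was present at a length-scaled level of 67.8 ± 8.92, and lumican (Lum) at 6.13 ± 0.895.

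Protease inhibitors were among the highest genes of this kind. Timp1 and Timp3 (1380 ± 92.0) led the metalloproteinase list, ahead of Mmp14 at 679 ± 20.9, Mmp2 at 417 ± 78.1 and Timp2 at 295 ± 73.8. MMP14 is a membrane-bound collagenase and MMP2 a gelatinase. The plasminogen and secreted protease list included Serpinf1 at 830 ± 203, Ctsd at 790 ± 89.7, Htra1 at 370 ± 24.7 and Ctsb at 304 ± 8.26. The plasminogen activator Plau was at 151 ± 18.3 and its receptor Plaur at 260.0 ± 7.33.

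Among cytokines and chemokines, Csf1, the growth factor of macrophages, was highest. It had 68644, 60607 and 63989 normalised reads and a length-scaled level of 1442 ± 83.2. Mif at 989 ± 90.5, Ccl2 at 215 ± 45.8, Ccl7 at 139.5 ± 29.6 and Cxcl14 at 116 ± 38.1 came next, of which Ccl2 and Ccl7 attract monocytes. Of 29 members listed, 24 were detected. Tnf, Cxcl2, Ccl5, Ccl11 and Osm were below 10 normalised reads in at least 1 library, and Tnf had 6.23, 6.73 and 4.04.

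Cytokine genes that the study names for inflammatory fibroblasts were present with DMSO alone. Il6 had 843, 804 and 1082 normalised reads, Lif 2115, 2157 and 3393, and Il11 657, 1031 and 1650. All 3 belong to the family that signals through gp130, whose gene Il6st had 14024, 12116 and 10081. Per length, Lif was at 69.5 ± 19.7, Il11 at 65.4 ± 29.5 and Il6 at 44.3 ± 7.31. Lif was above Il6 in every preparation, though their SDs overlapped, and the SD of Il11 overlapped both. Cxcl1, a neutrophil attractant, was low, with 76.1, 129 and 60.6 normalised reads. The stromal genes Fap (165, 142 and 176) and Mme (377, 379 and 372), which encode a fibroblast surface protease and CD10, were low and even. Cd74, a gene of antigen presentation, had 87.3, 32.5 and 45.4. C5ar2 was not analysed here.

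Growth factors were led by Ctgf at 3431 ± 701 and Cyr61 at 2001 ± 99.0, matricellular proteins of the CCN family that are known targets of YAP, then Fstl1 at 1076 ± 81.0, Igfbp3 at 498 ± 107 and Wisp1 at 369 ± 34.1. Ctgf had 77012, 69814 and 102253 normalised reads and was highest in preparation 3. Other secreted proteins after Lgals1 were Clu (clusterin) at 2910 ± 1072, S100a6 at 2601 ± 609, S100a11 at 2505 ± 133 and Anxa1 at 1202 ± 202. Clu was highest in preparation 3, with 62128, 71454 and 120071.

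The 3 channel lists had median length-scaled levels of 8.17 to 11.3, below the medians of the contractile list (867) and of the matrix lists (45.0 to 907.5). Among mechanosensitive and TRP channels, 19 of 32 were listed and 16 detected. Piezo1 was highest, followed per length by Tmem63a at 75.7 ± 8.88, Tmem63b at 60.9 ± 7.30, Pkd2 at 58.3 ± 4.32, Pkd1 at 47.4 ± 3.47, Piezo2 at 46.3 ± 14.1 and Trpm7 at 43.5 ± 0.537. TMEM63 proteins open on osmotic or mechanical stress, polycystins (Pkd1, Pkd2) form a cilium channel complex, and TRPM7 conducts magnesium and calcium. Piezo1 exceeded each of them in every preparation. Levels of Tmem63b and Pkd2, and of Pkd1, Piezo2 and Trpm7, lay within each other's spread.

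Trpv4 had 343, 301 and 376 normalised reads, a length-scaled level of 9.86 ± 1.08, and lay beside Trpv2 at 11.0 ± 0.833 and Trpc2 at 9.07 ± 0.560. Trpc1, Trpm4 and the stretch-gated potassium channel Kcnk2 were detected too, with means of 224, 412 and 107 normalised reads. In the calcium list, all 30 members listed were detected. The endoplasmic reticulum pump Atp2a2 (SERCA2) was highest at 419 ± 12.8, then the IP3 receptor Itpr3 at 101 ± 5.19, the gap junction gene Gja1 at 79.7 ± 6.50, Cacnb3 at 69.7 ± 3.90 and the store sensor Stim2 at 46.2 ± 2.01. The store-operated pore gene Orai1 was detected as well. Of the potassium, chloride and sodium channels, Clic1 at 696 ± 26.9, Clic4 at 338 ± 7.16, Lrrc8c at 89.6 ± 8.05, Lrrc8a at 79.3 ± 8.93 and Ano6 at 75.5 ± 1.41 were highest.

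Receptor genes covered several ligand families. Among receptor kinases, Axl, the receptor of GAS6, was highest at 873 ± 103, with 41887, 36768 and 32892 normalised reads. Ddr1, a collagen receptor, at 251 ± 17.7, Epha2 at 174 ± 26.9, Egfr at 136 ± 6.01 and Igf2r at 130 ± 18.0 followed. The PDGF receptor genes Pdgfrb (5015, 5448 and 6651 normalised reads) and Pdgfra (3874, 3819 and 2803), which mark mesenchymal cells, were both present, and the former was highest and the latter lowest in preparation 3.

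All 41 G protein-coupled receptors listed were detected, but at a median length-scaled level of 5.17. F2r, the thrombin receptor, was highest at 285 ± 20.4, then the orphan receptor Gprc5a at 166 ± 17.5 and the Wnt receptors Fzd2 at 135 ± 7.70, Fzd7 at 86.8 ± 8.20 and Fzd1 at 78.6 ± 4.43. Cytokine receptors, with all 25 detected, included Tnfrsf12a, the highest, at 451 ± 24.8, Tnfrsf1a at 182 ± 13.9, Il6st at 129 ± 20.7 and Il4ra at 125 ± 11.2. Integrin genes were led by the fibronectin receptor pair Itgb1 at 2091 ± 74.4 and Itga5 at 1168 ± 157, then Itga3 (12068, 10010 and 10749 normalised reads), Itgav at 223 ± 12.4 and Itgb5 at 166 ± 22.5.

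**Figure D2:**
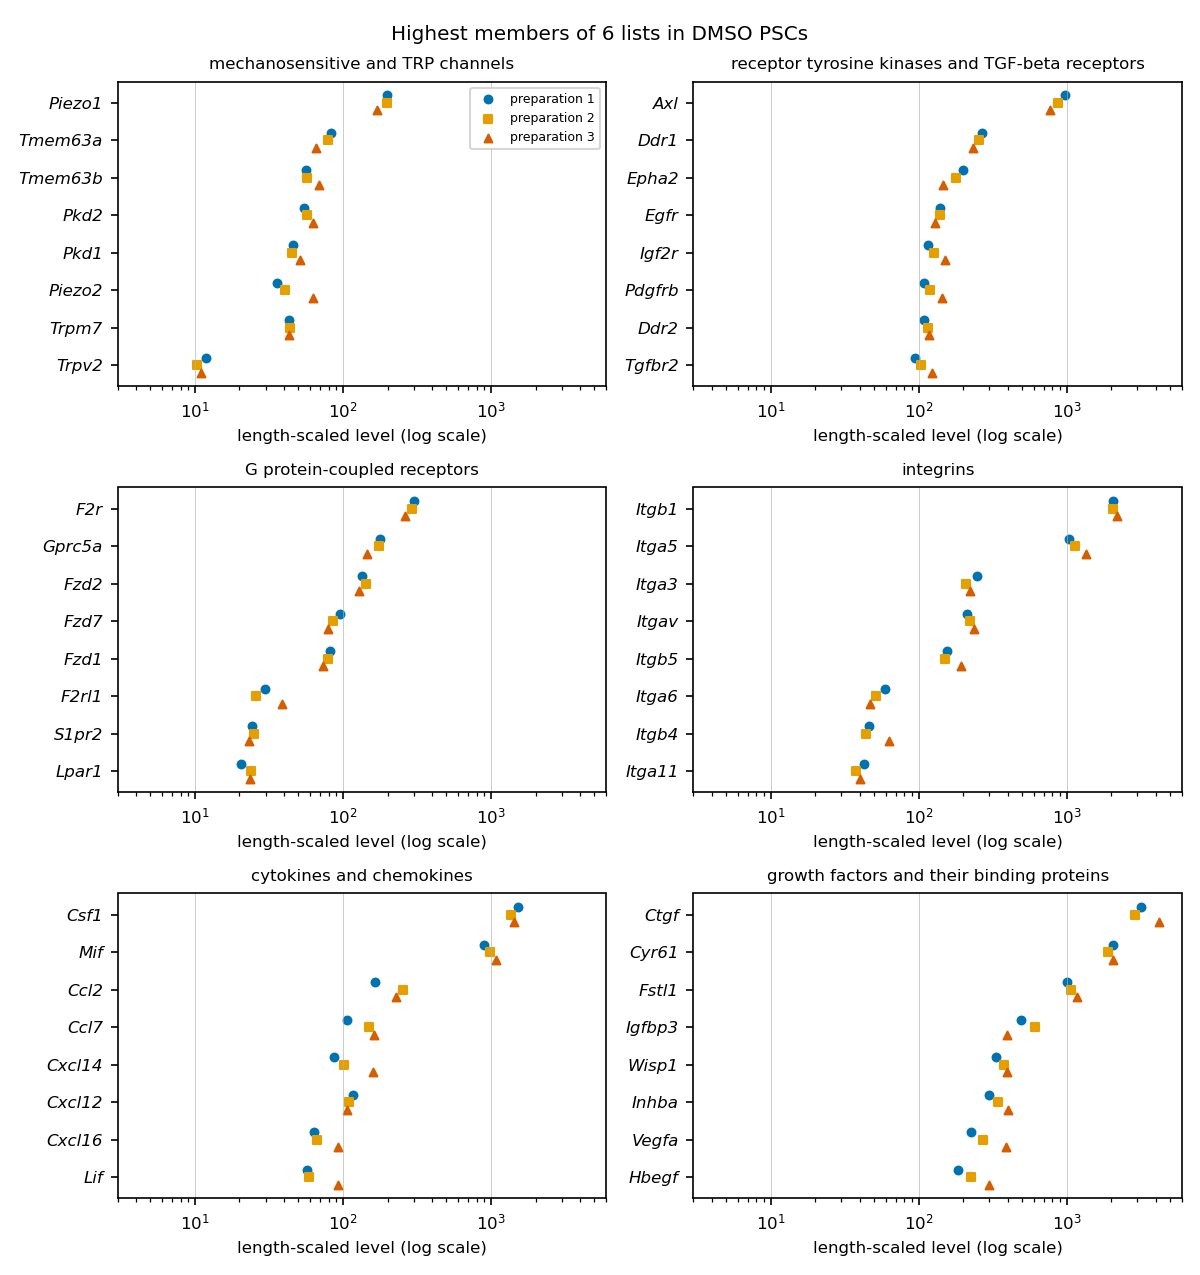
Length-scaled level (log axis) of the 8 highest members of 6 lists, with 1 point per preparation, set slightly apart in height. Piezo1 (189) leads the channels, Axl (873) the receptor kinases, F2r (285) the G protein-coupled receptors, Itgb1 (2091) the integrins, Csf1 (1442) the cytokines and Ctgf (3431) the growth factors.

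Of the stellate cell genes, 21 of 24 were listed. The filament genes Vim and Des (4639, 3172 and 2729 normalised reads), the droplet protein gene Plin2 (5987, 6699 and 8388) and the filament gene Nes (4217, 4169 and 6274) were among the 5 highest per length. Gfap and Lrat, which are often used to name quiescent stellate cells, were not analysed here. Surface genes that mark fibroblast subtypes were led by Pdpn at 710 ± 84.4, Slpi at 195 ± 40.9, Pdgfrb at 123 ± 18.4, Eng at 97.4 ± 29.8 and Thy1 at 75.0 ± 14.9. Transcription factors after Srf were Tead1 at 205 ± 17.4, Klf6 at 178 ± 0.835, Barx1 at 171 ± 46.6, a factor of mesenchyme around the developing foregut, and Wwtr1 (TAZ) at 144 ± 3.86.

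Cell cycle genes were expressed, with all 25 members detected and Mki67 at 14891, 13772 and 10706 normalised reads and Top2a at 12508, 11322 and 8861. Per length the list was led by Cdk4, Cdkn1a, Ccnd2, Rrm2 and Plk1, at 313 to 179. In preparation 3, 23 of the 25 were at their lowest, against 5966 of 15145 genes tested (39.4%). Stress and immediate early genes, all 21 detected, were led by the chaperone Hspa5 at 1457 ± 17.9, then Ier3 at 639 ± 65.5, Atf4 at 628 ± 29.5, Hmox1 at 563 ± 117 and Junb at 389 ± 61.1. The Y-linked genes Ddx3y (3064, 3125 and 2936 normalised reads), Eif2s3y, Uty and Kdm5d were present in every preparation. The 7 mitochondrial genes listed took 1.02%, 1.00% and 1.03% of the reads.

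**Figure D3:**
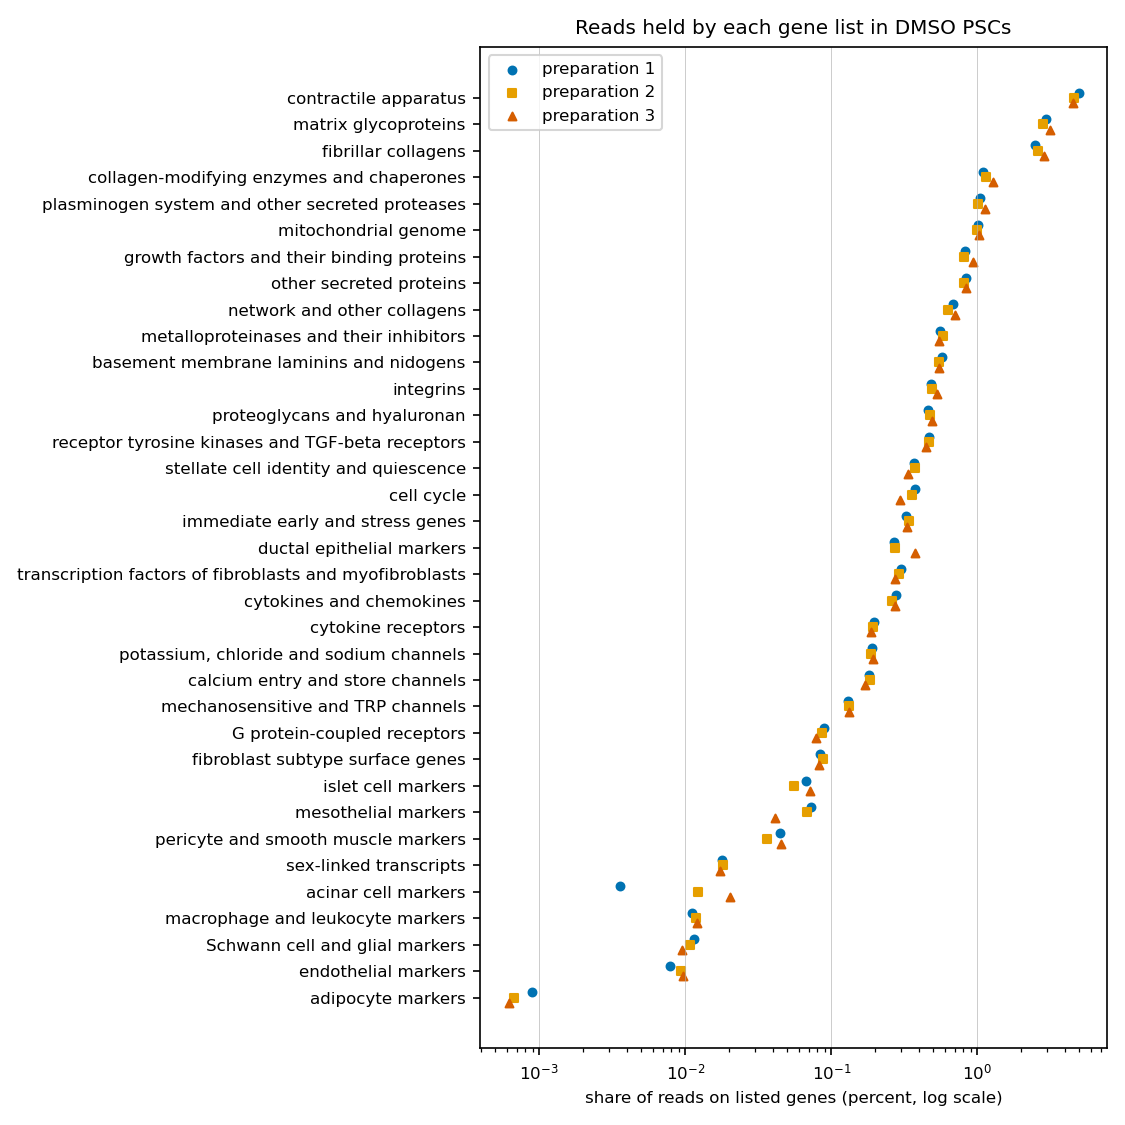
Share of reads on listed genes (percent, log axis) taken by each of 35 gene lists, with 1 point per preparation, set slightly apart in height. The contractile list (4.94% to 4.51%) is highest, most lists differ little between preparations, and the acinar markers (0.0036% to 0.0202%) spread most.

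Genes that define other cells of the pancreas were also read in these cultures. A bulk library cannot tell fewer cells of a type from less RNA per cell, and no share of cells follows from the values. All 12 ductal epithelial markers were detected. Keratins Krt18 (24708, 23716 and 33730 normalised reads) and Krt8 (28134, 28422 and 38264) were the highest, at length-scaled levels of 2253 ± 453 and 1909 ± 349, followed by the tight junction gene Cldn4 at 746 ± 259 and by Spp1. The adhesion genes Epcam (3044, 3067 and 5137) and Cdh1 (6104, 6403 and 10567) were both highest in preparation 3. The list took 0.270%, 0.273% and 0.374% of the reads, and Krt8, Krt18 and Krt19 are also known from mesothelium.

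Hormone genes of the islet were present, with all 12 markers detected. Ins2 had 5150, 4657 and 4952 normalised reads, Ins1 3365, 3474 and 3597, Iapp 2933, 2776 and 4005, and Gcg 5267, 2782 and 2797. Per length, Ins2 was at 443 ± 20.2 and Ins1 at 405 ± 14.5. Insulin genes were thus even over the preparations, whereas glucagon was highest in preparation 1. All 10 mesothelial markers were detected, led by Upk1b at 230 ± 102, Krt19 at 210 ± 24.7, Msln (mesothelin) at 175 ± 17.7, Wt1 at 77.0 ± 13.1 and Lrrn4 at 64.8 ± 39.6, and together they took 0.0727%, 0.0685% and 0.0413% of the reads.

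Acinar markers took 0.0036%, 0.0123% and 0.0202% of the reads. Ctrb1, a chymotrypsinogen, was the highest at 358 ± 257, and the acinar transcription factor gene Bhlha15 had 41, 48 and 23 normalised reads. Leukocyte genes were low apart from the lysozyme gene Lyz2 (1768, 2005 and 1917), with C1qa, Cd14, Cd68 and C1qb at length-scaled levels of 27.1 to 17.5 and the pan-leukocyte gene Ptprc at 23.7, 25.8 and 37.3 normalised reads. Endothelial genes were led by Esam (589, 648 and 487) and Kdr (1565, 1891 and 1303), while Pecam1 had 67, 85 and 222. Of the Schwann cell list, 4 of 10 were listed, and Mbp, a myelin gene, was the highest at 36.7 ± 3.91. Pericyte and smooth muscle markers were led by Mcam at 206 ± 44.8 and Des at 111 ± 31.0, with Rgs5 at 2.51 ± 0.506. The adipocyte genes Fabp4 and Lipe, 2 of 8 on that list, were at 3.68 ± 1.62 and 2.20 ± 0.361.

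**Figure D4:**
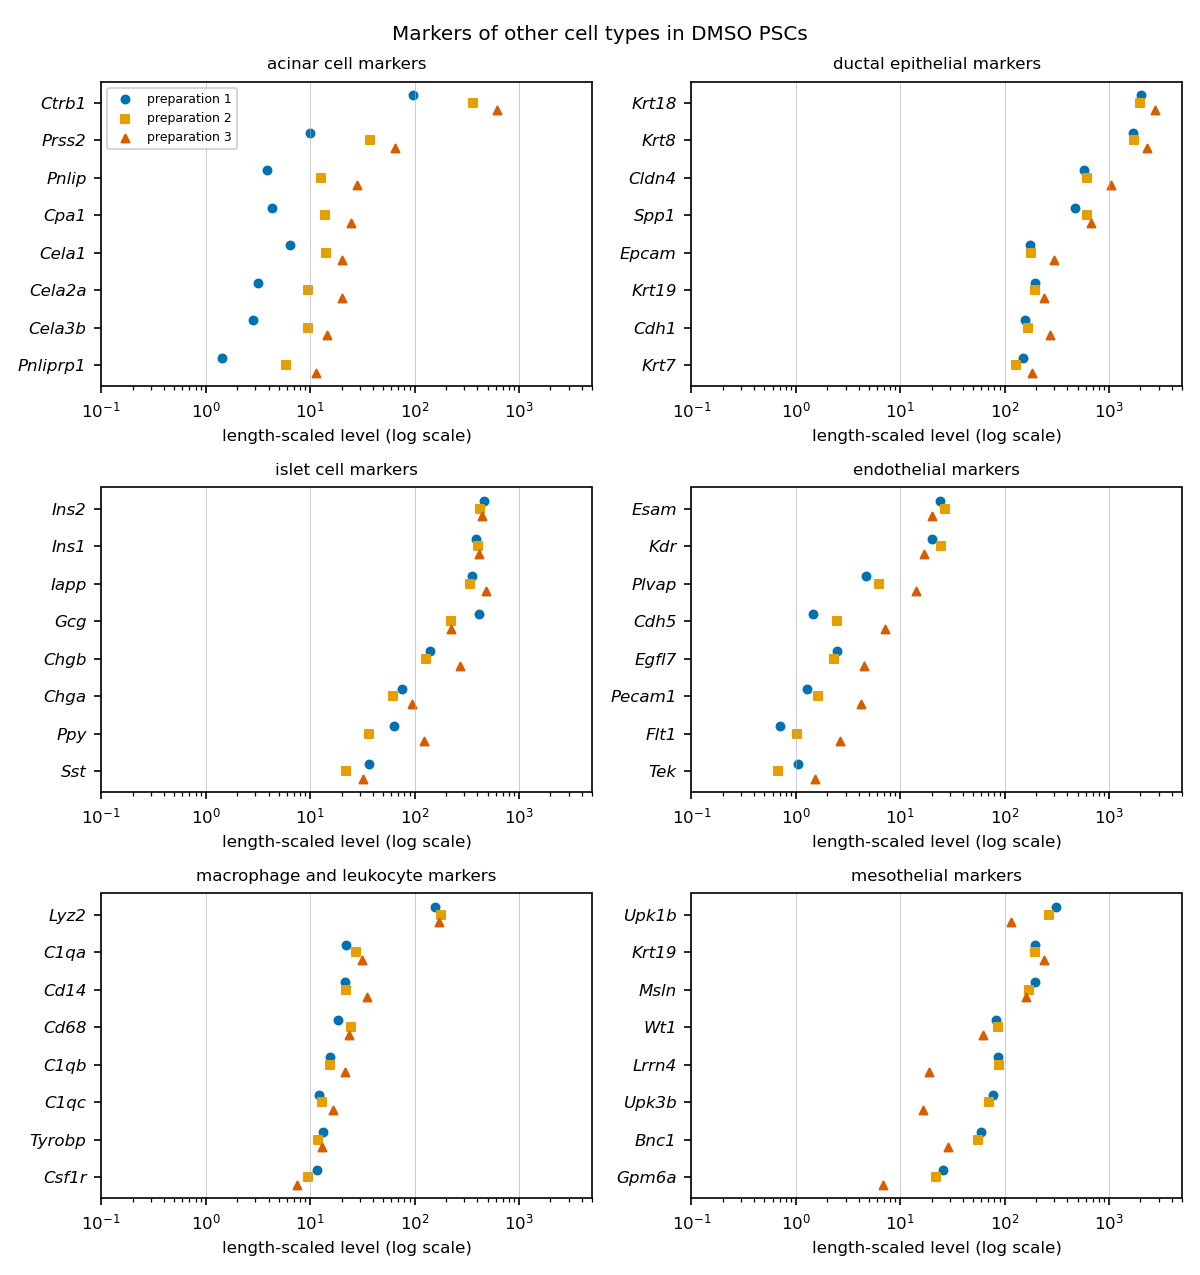
Length-scaled level (log axis) of the 8 highest markers of 6 other cell types in the DMSO libraries, with 1 point per preparation, set slightly apart in height. Acinar markers separate in the order 1, 2, 3, insulin genes overlap, and Lrrn4 and Upk3b are lowest in preparation 3.

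Which genes varied between the preparations was tested next. A preparation had 1 DMSO library, so its Yoda1 library was used as the second one, with treatment as a term of the model, and p-values measure only the spread between such libraries. By limma's moderated F test on log2(normalised reads + 1), 2 of 15145 genes, or 0.0132%, passed an adjusted p under 0.05 with a range of fitted means over 1 (log2), and 3092 had an unadjusted p under 0.05. edgeR's quasi-likelihood test on the recovered reads called 250 genes, or 1.65%, with the same threshold, and 2 genes when the model had no treatment term. Of the 250 genes of the full model, 152 (60.8%) were highest and 89 (35.6%) lowest in preparation 3 in both treatments. Over all genes tested, these shares were 25.4% and 25.8%. Since the calls use both treatments, agreement between treatments is in part built into them. The edgeR count moved between 70 (without the Yoda1 library of preparation 2) and 890 (without the DMSO library of preparation 3), and it was also over 1.5 times lower at 99 without the DMSO library of preparation 2 and 128 without the Yoda1 library of preparation 1. Of the 250 genes, 49 were called in all 6 fits that left out 1 library. All calls below are edgeR's unless limma is named.

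The 2 genes called by limma were Gm11942 and Gm15459, and both were also called by edgeR in the full fit and in all 6 fits without 1 library. With 1 library left out, limma's F test called 0 genes, and its comparisons of pairs called at most 1. Gm11942 (ENSMUSG00000094344, chromosome 4, 32964888 to 32965232), a processed pseudogene, had 2293, 2597 and 15.1 normalised reads with DMSO and 2112, 2608 and 14.4 with Yoda1. Its log2 difference between preparations 1 and 3 was 7.12 (SE 0.07, limma adjusted p = 0.0032). Preparation 3 was thus far below the other preparations in both treatments, and above the limit of 3 reads.

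Over its 345 bases, by GENCODE vM21 transcripts, Gm11942 differs at 9 from the coding sequence of Rplp1, a ribosomal protein gene with 30009, 31654 and 33962 normalised reads. It differs at 8 from Gm10073, which had 47, 42 and 60 normalised reads. Reads of the copies can be confused, and the value of the pseudogene is uncertain for that reason.

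Gm15459 had 373, 5876 and 287 normalised reads with DMSO and 291, 5092 and 225 with Yoda1, so preparation 2 alone was high. The transcript of that name, found by symbol because the table gives another identifier, differs at 5 of 1941 bases from Hspa8, a chaperone gene with 48908, 42715 and 41854 normalised reads, and is uncertain in the same way.

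Acinar enzyme genes varied most among the lists. Of 12 members tested, 11 were called, against 1.65% of all genes. All 11 rose from preparation 1 through 2 to 3 in both treatments, against 10.1% of all genes tested. The calls rest on both treatments together, so the shared order adds no separate evidence. Ctrb1 had 724, 2708 and 4540 normalised reads with DMSO and 967, 3604 and 9638 with Yoda1, an edgeR log2 range of 3.01 (adjusted p = 0.011). The trypsinogen Prss2 had 70, 256 and 453, the lipase Pnlip 49, 159 and 350, and the carboxypeptidase Cpa1 64, 206 and 364 with DMSO. Other acinar genes outside the list, the trypsinogen Try5 (51, 262 and 434) and Gp2 (21, 119 and 192), a zymogen granule protein, had the same order, and these 2 were named after their values were seen. The member not called was Bhlha15. Between 7 and 11 members were called when 1 library was left out, and by limma none passed, with an adjusted p of 0.10 for Ctrb1. The noncoding transcript Gm42418 also rose in this order in both treatments. It was called too (edgeR log2 range 1.24, adjusted p = 0.0051), and in all 6 fits without 1 library.

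Mesothelial genes ran the other way in part. Upk1b, Lrrn4 and Upk3b, 3 of 10, were called, against 1.65% of all genes, and 6 of 10 were lowest in preparation 3 in both treatments, against 25.8% of all genes tested. Lrrn4, a membrane protein of mesothelium, had 2741, 2771 and 600 normalised reads with DMSO (edgeR log2 range 2.25, adjusted p = 0.022), and Upk3b had 2336, 2123 and 491 (2.18, adjusted p = 0.013). Msln was also lowest in preparation 3 but differed less, with 3491, 3075 and 2845. Without 1 library, 1 to 4 members were called. One of 12 ductal genes, the mucin Muc1 (233, 333 and 790), and 2 of 12 islet genes, Chgb (3292, 2966 and 6340) and Ppy (268, 156 and 521), were called too and were highest in preparation 3. In both treatments, 10 of 12 ductal and 8 of 13 endothelial markers were highest in preparation 3, against 25.4% of all genes. With 1 library left out, ductal calls numbered 1 to 8 and islet calls 2 to 5. The Schwann cell list had 1 call of 4 (0 to 2 with 1 library left out), Prx (617, 375 and 300), which was called in 1 of the 6 fits. None of the 13 endothelial or 13 leukocyte markers tested was called, but 7 endothelial markers were without the Yoda1 library of preparation 3 and 3 leukocyte markers without the DMSO library of preparation 3, and 8 ductal markers were called without the latter. Whether other cells in a culture had a part in any of the differences that follow was not tested.

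Among matrix genes, the calls went in both directions, with 4 of 17 network and other collagens (23.5%), 4 of 23 proteoglycans (17.4%), 4 of 27 glycoproteins (14.8%), 1 of 9 fibrillar collagens and 1 of 15 basement membrane genes called, against 1.65% of all genes. The type V collagen chain Col5a3 (3571, 5480 and 9920 normalised reads with DMSO) and Postn, periostin (13724, 18224 and 31092), were highest in preparation 3, as were Mfap4, Aspn, Srgn and Col7a1. The other matrix calls were lowest there, and included both short chains of type VI collagen, Col6a1 (4978, 4989 and 2343) and Col6a2 (3363, 3552 and 1628), as well as Nid2 (11613, 8398 and 3458), Efemp1 (3524, 2682 and 1207), Col4a6, Mgp, Prelp and Gpc3. The long chain Col6a3 had 7695, 9906 and 12611 with DMSO but 4542, 3479 and 2882 with Yoda1, an order that the second set of libraries did not share. Col5a3 (log2 range 1.51, adjusted p = 0.0080) and Efemp1 (1.39, 0.0054) were called in all 6 fits without 1 library, Postn (1.08, 0.0063) and Nid2 (1.49, 0.013) in 5, Col6a1 (1.21, 0.017) in 4 and Col6a2 (1.07, 0.017) in 3. Col4a6 was called in 6 fits, Mfap4 and Gpc3 in 5, Mgp and Prelp in 4, Col7a1 in 3, and Aspn and Srgn in 2. With 1 library left out, network collagens had 1 to 4 calls, matrix glycoproteins 2 to 6, and basement membrane genes and proteoglycans 0 to 4 each.

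Among secreted and signalling genes, edgeR called 3 of 21 other secreted proteins (14.3%), 2 of 20 metalloproteinases and inhibitors (10.0%), 2 of 31 potassium, chloride and sodium channels (6.45%), 3 of 54 growth factors (5.56%) and 2 of 41 G protein-coupled receptors (4.88%), against 1.65% of all genes. With 1 library left out, these counts ran from 1 to 4, 0 to 6, 0 to 3, 1 to 6 and 0 to 7 in the same order, highest for metalloproteinases and receptors without the DMSO library of preparation 3, for secreted proteins and growth factors without the Yoda1 library of preparation 3, and for channels without either. Il11 was the 1 call among 27 cytokines tested (10 without the DMSO library of preparation 3), with 657, 1031 and 1650 normalised reads with DMSO and 1136, 1862 and 2963 with Yoda1 (edgeR log2 range 1.36, adjusted p = 0.0028), and it was called in all 6 fits. Igfbp2, which binds insulin-like growth factors, had 2600, 1174 and 696 with DMSO and 635, 280 and 109 with Yoda1 (2.15, adjusted p = 0.0092). Bmp4 and the acute-phase gene Saa3 (577, 905 and 183) were lowest in preparation 3, and Dkk2, Clu, Lcn2, Mmp9 and Mmp15 were highest there. Of these, Saa3 was called in all 6 fits without 1 library, Bmp4, Clu and Mmp15 in 4, and Dkk2, Lcn2 and Mmp9 in 2. Channels called were the chloride channel Ano1 (1541, 1831 and 3358) and Kcnq5. Receptors called were the serotonin receptor Htr2b (90, 128 and 256) and the angiotensin receptor Agtr1a (88.5, 35.9 and 22.2). Ano1 was called in 5 of the 6 fits, Htr2b in 4, and Kcnq5 and Agtr1a in 2.

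Of the surface genes of fibroblast subtypes, 3 of 18 (16.7%) were called, against 1.65% of all genes, and 0 to 5 with 1 library left out. These were Cd34 (594, 578 and 257 normalised reads), a surface protein of progenitors and fibroblasts, Cd74, which was highest in preparation 1, and Ly6c1 (7.48, 24.7 and 40.4), each called in 2 of the 6 fits. The immediate early gene Egr2 (551, 664 and 1207), 1 of 21 in its list (4.76%, and 0 to 3 calls with 1 library left out), was called in 5 fits, and the transcription factor gene Osr1 (1021, 884 and 523), 1 of 38 (2.63%, and 0 to 2 calls), in 4. A single call in lists of this size is near the share over all genes.

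Other groups had no member called, which in lists of this size is near the 1.65% of all genes and no result about them. These were the contractile apparatus (0 of 32), collagen-modifying enzymes (0 of 19), receptor kinases (0 of 36), cytokine receptors (0 of 25), integrins (0 of 18), mechanosensitive and TRP channels (0 of 18), calcium channels (0 of 30), the cell cycle (0 of 25), stellate cell identity (0 of 20), the plasminogen system (0 of 16), pericyte markers (0 of 9), and the mitochondrial, sex-linked and adipocyte lists. With unadjusted p under 0.05, edgeR listed 3793 genes over the whole table, and a missing call does not show that members of these groups were equal. For the cell cycle, 22 of 25 genes were lowest in preparation 3 in both treatments, against 25.8% of all genes, and 7 members were called when the DMSO library of preparation 3 was left out. Leaving out that library also gave 4 calls among contractile genes, 4 among integrins, 3 among calcium channels and 2 among receptor kinases. Cytokine receptors and pericyte markers had 1 call each. That fit called the most genes of all fits without 1 library, so the 1.65% does not apply to its counts, and no result is drawn from them. Without the Yoda1 library of preparation 3, receptor kinases had 3 calls, and calcium channels and cytokine receptors 1 each. Piezo1 had a log2 range of 0.22 over the DMSO libraries and of 0.22 in edgeR's fit over both treatments (adjusted p = 0.14). For Acta2 the range was 0.15 over the DMSO libraries and 0.44 in the fit (adjusted p = 0.51), which includes Yoda1 libraries with 51408, 44748 and 27293 normalised reads.

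**Figure D5:**
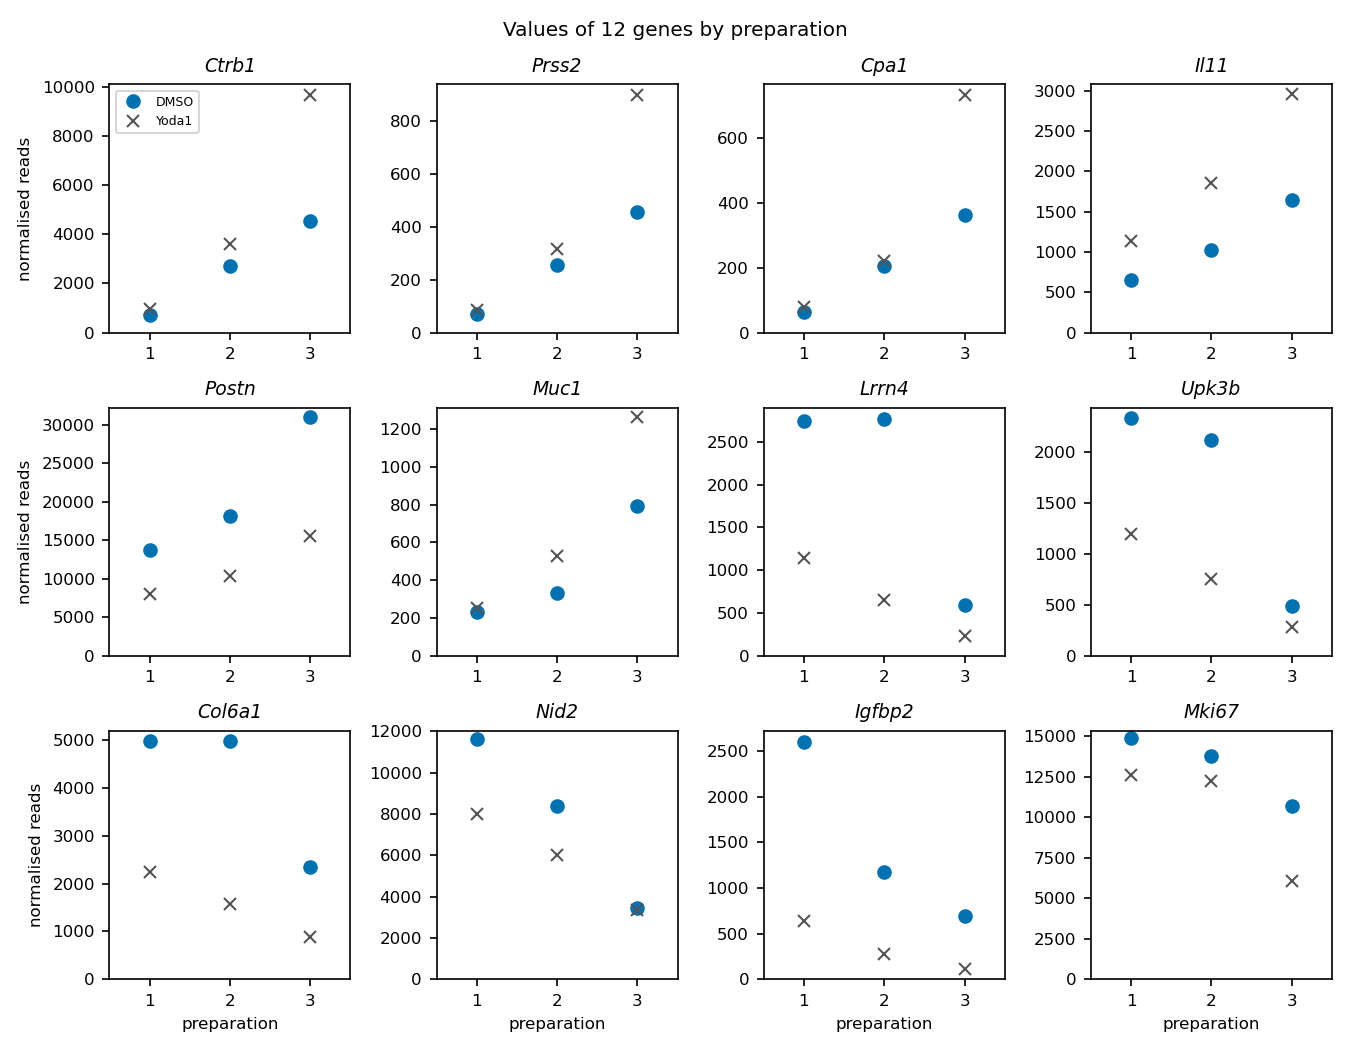
Normalised reads (linear axes from 0) of 12 genes in each preparation, with the DMSO library as a filled circle and the Yoda1 library of the same preparation as a cross. Ctrb1, Prss2, Cpa1, Il11, Postn and Muc1 are highest in preparation 3 and Lrrn4, Upk3b, Col6a1, Nid2, Igfbp2 and Mki67 are lowest there, in both libraries.

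Variation over the DMSO libraries depended on the level. Of 11414 genes tested with a mean of at least 100 normalised reads with DMSO, 260 (2.28%) spanned more than 1 log2 unit over the 3 DMSO libraries, and preparation 3 lay farthest from the median in 195 of them, preparation 1 in 61 and preparation 2 in 4. In 170 of the 260 (65.4%), the Yoda1 libraries ranked the preparations in the same order, against 34.7% of the 11414. Genes with a mean between 1000 and 10000 had a median coefficient of variation of 5.03%, where counting error alone gives 2.23%. Among genes with a mean between 10 and 100, 781 of 3563 spanned more than 1 log2 unit, and their median coefficient of variation was 22.6%, where counting error alone gives 19.7%.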

How the data were processed

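Total RNA of mouse livers and PSCs was sequenced, and only the 6 PSC libraries were used here, in 3 preparations that each gave a DMSO and a Yoda1 library. For every gene in each library the authors deposited a normalised signal, and all 98886 values were whole multiples (within 0.1 read) of one step per library, that is, gene counts divided by a size factor. From these the reads were recovered. The submitters' processing notes name HISAT2 2.0.5 and Trim Galore, and the counting tool is not given in the sources used here. Authors' comparison columns (fold changes and p-values) and the liver counts were not used, nor were 7 count columns that matched no described sample. Gene lengths and GRCm38 coordinates came from the deposited liver table, by gene ID, for 16286 of 16481 genes. The length-scaled level uses 1 length per gene and so depends on which isoforms are expressed.

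Preparations were compared with limma 3.58.1 in R 4.3.3 on log2(value + 1), for genes that reached 10 normalised reads in 3 or more of the 6 libraries, with preparation and treatment as terms, a moderated F test and Benjamini-Hochberg adjustment. Calls needed an adjusted p under 0.05 and a log2 range over 1. edgeR 4.0.16 (TMM, quasi-likelihood) on the recovered reads was the second test. The steps were tested on simulated data. Nothing shows that the preparations came from separate litters or days, so the spread may be partly technical. Members and lists were chosen with earlier results of these data known. Named genes were the 5 markers, the 20 highest by value and per length, and the 5 highest per length of each list. The 5 largest called differences per direction in each pair of preparations with a mean of at least 100 were added. So were a set of genes tied to PSCs or cancer-associated fibroblasts, and markers of other cells called between preparations. The study names all of that set but Cxcl1. All other genes named were chosen after their values were seen. SDs are over the 3 DMSO libraries. Counting limits cover counting error only, since reads carried no molecular identifiers. Some genes and sequences are not reported here.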

Additional observations from a re-analysis of the deposited data

How the results depend on the processing

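limma's count of genes that differ between the preparations was 2 and became 250 with edgeR and 1 without a treatment term. For preparations 1 and 2 it was 1 and became 2 without a filter on low values, 2 with edgeR and 0 without a treatment term. For preparations 1 and 3 it was 1 and became 156 with a pseudocount of 10 and 329 with edgeR (111 higher and 218 lower in preparation 1), and for preparations 2 and 3 it was 2 and became 112 with edgeR. The cause of these changes was not tested. With 1 library left out, limma called 0 genes overall and in either comparison with preparation 1, and 0 to 1 between preparations 2 and 3, with 1 residual degree of freedom left. edgeR's 250 became 2 without a treatment term and 70 to 890 with 1 library left out. Leaving out libraries and the treatment term for edgeR, and leaving Gm42418 out of the read total, were chosen after seeing the data. The number of genes detected in DMSO cells was 14362 and lay between 11148 (at least 100) and 16330 (at least 1). Scaling to equal totals moved the mean of each of 188 named genes by at most 1.01 times. Leaving out preparation 3 lowered Ctrb1 from a mean of 2657 to 1716 normalised reads, and the means of Prss2, Pnlip, Cpa1, Plvap and Cdh5 also fell by over 1.5 times, as did the acinar share, to 0.00792%, and Gm15459 without preparation 2, to 329.7. Scaled by length, 15 of 35 list shares moved by over 1.5 times, such as fibrillar collagens from 2.65% to 1.32% and acinar markers from 0.0120% to 0.0474%. No paired analysis was possible because the replicate number is the preparation, which is the factor compared.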
